A study of Mus musculus with 25 samples.

Results

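The collagen and laminin genes of the mouse are 55 genes in these data, out of 18440 genes listed in all 5 expression tables. They were chosen by gene symbol alone: every numbered collagen chain (Col, a type number, a, a chain number) and every laminin alpha, beta or gamma chain (Lama, Lamb or Lamc with a number). All 55 were listed in each of the 5 tables, and 47 of them reached 0.5 FPKM in at least 5 libraries and were tested. FPKM counts fragments for each kilobase of a transcript, relative to all mapped fragments of the library. The 19 basement membrane genes are the 6 chains of type IV collagen, the 2 multiplexin collagens (types XV and XVIII) and the 11 laminin chains, and 17 of them were tested. The other 36 are 11 fibrillar, 9 FACIT (fibril-associated), 6 type VI, 4 short-chain or anchoring, 4 transmembrane and 2 other collagens, and 30 of them were tested. Of the genes that were not tested, 6 are the collagens Col6a5, Col6a6, Col10a1, Col13a1, Col14a1 and Col28a1, and the beta chain Lamb3 was also not tested.

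The study measured RNA from retina of wild-type C57BL/6J mice injected into the vitreous of both eyes at postnatal day 30, with 5 libraries in each of 5 groups. The groups were tunicamycin, Ceapin-A7 and AA147, each given as 1 µL of a 10 µM solution, and 2 sets of vehicle libraries, here vehicle set 2 and vehicle set 1, given saline with 0.05 to 0.1% dimethyl sulfoxide (their treatment label reads PBS). Tunicamycin blocks N-linked glycosylation and so causes stress of the endoplasmic reticulum (ER), Ceapin-A7 inhibits the ER stress sensor ATF6, and AA147 activates the ATF6 branch. Tunicamycin and Ceapin-A7 were set against vehicle set 2 and AA147 against vehicle set 1, because these tables share a gene list. Columns of the 3 compounds are marked 24 h, whereas vehicle columns carry no time, so compound and time of collection cannot be told apart. Nothing in the labels says that libraries came from separate mice, so the p-values rest on differences among libraries that could be technical.

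A basement membrane is a thin sheet of matrix built on 2 networks, one of laminin and one of type IV collagen. Laminins are trimers of 1 alpha, 1 beta and 1 gamma chain, and the alpha chain carries the main binding site for cell receptors. Such sheets line the vitreous face of the retina (the inner limiting membrane), the retinal vessels and the pigment epithelium, and the capsule of the lens is a thick one. Fibrillar collagens form the fibres of sclera, cornea and vitreous. All chains are made in the ER, where their folding needs dedicated enzymes and chaperones.

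The libraries held retinal RNA, with 10 rod genes summing to between 16790 and 27080 FPKM. Estimated depth was 15180000 to 25060000 fragments, with a median of 23240000. RNA of other eye tissues varied between libraries. The 20 lens markers (crystallins and other lens fibre genes) summed to 21240, 10650, 80, 399 and 8408 FPKM in the 5 tunicamycin libraries, 12760, 226, 1606, 259 and 6065 FPKM in the Ceapin-A7 libraries and 7781, 3263, 78.7, 3180 and 94.8 FPKM in vehicle set 2, in library order. They summed to 72.8 to 2248 FPKM in AA147 libraries and 295 to 2781 FPKM in vehicle set 1, so 6 of 25 libraries exceeded 5000 FPKM, 3 of tunicamycin, 2 of Ceapin-A7 and 1 of vehicle set 2. The genes called with tunicamycin, and the group values that moved most, are therefore also given for the 19 libraries under that limit, which leaves tunicamycin libraries 3 and 4, 3 Ceapin-A7 libraries and 4 of vehicle set 2; the limit was chosen after the values were seen. Y-linked genes were near 0 in none of the tunicamycin libraries, 2 Ceapin-A7 libraries and 4 libraries of vehicle set 2, and in 2 AA147 libraries and none of vehicle set 1, so they differed between the groups of every comparison. In bulk tissue, fewer cells of a type and less RNA per cell cannot be told apart.

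In the 10 vehicle libraries the 55 genes together summed to a mean of 232 FPKM. The basement membrane genes made up 33.4% of that sum, of which type IV collagen was 17.3% and the laminins 11.01% of the whole. FACIT collagens made up 19.2%, fibrillar collagens 17.2% and type VI collagens 15.3%. The 6 genes with the highest mean were Col6a1 at 29.0 FPKM, Col4a1 at 18.2, Col9a1 at 17.97, Col23a1 at 17.1, Col2a1 at 15.4 and Col4a2 at 13.3 FPKM. Col6a1 encodes a chain of the type VI microfibrils, Col9a1 and Col2a1 encode chains of the vitreous collagens, and Col23a1 encodes a transmembrane collagen. The rank of Col4a1 rests on library 1 of vehicle set 2, at 72.9 FPKM and over the lens limit: over the other 9 vehicle libraries its mean was 12.1 FPKM, below Col9a1, Col23a1 and Col2a1, and type IV collagen was 13.3% of the whole. The vehicle sets also differed, with a mean Col6a1 of 22.5 FPKM in vehicle set 2 and 35.6 FPKM in vehicle set 1, and a mean Col2a1 of 10.6 and 20.2 FPKM in the same order. The laminin chains were lower, led by the beta chain Lamb2 at 6.65 FPKM, the alpha chain Lama5 at 4.95 FPKM and the gamma chain Lamc1 at 4.88 FPKM.

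**Figure D1:**
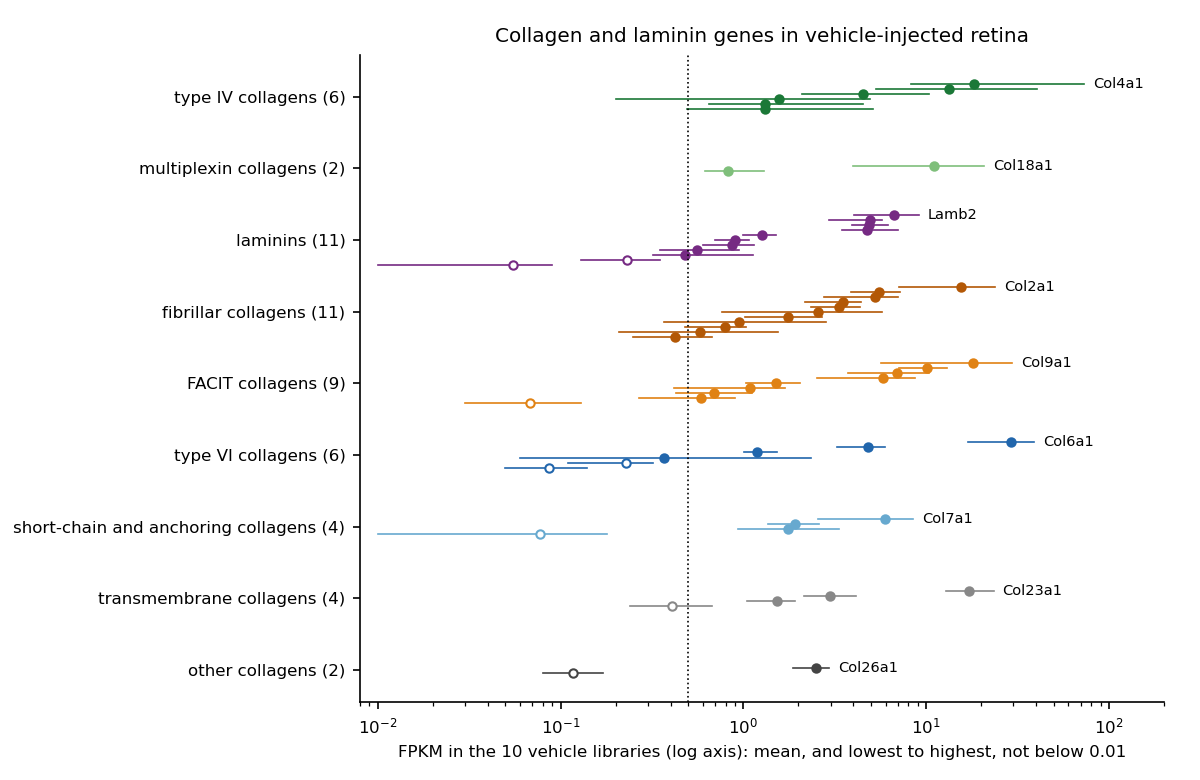
Mean FPKM of the 55 collagen and laminin genes over the 10 vehicle libraries, on a log axis, 1 point a gene, with a line from the lowest to the highest library and genes grouped by class (number of genes in brackets). Filled points were tested and open points were not; the dotted line is at 0.5 FPKM. The named gene is the highest of its class, from Col26a1 at 2.50 FPKM to Col6a1 at 29.0 FPKM.

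Tunicamycin against vehicle set 2 gave 7 called genes among the 47, where called means an adjusted p under 0.05 in limma on log2(FPKM + 1) with Benjamini-Hochberg adjustment over 14025 genes. Of these, 4 were higher (Lama1, Lama2, Lama4 and Col26a1) and 3 were lower (Col5a1, Col12a1 and Col27a1). That is 14.9% of the genes tested, against 8.51% of all genes tested, of which 5.68% were higher and 2.84% lower. Scaling by median ratios turned the 796 higher and 398 lower of all genes into 591 and 582, and gave 3 higher and 3 lower among the collagens and laminins. The median change was -0.03 over the 47 genes and 0.01 over all genes tested. All 3 called basement membrane genes were laminin alpha chains, and all 3 called genes that fell were collagens outside the basement membrane. The model shares 1 spread for all 5 groups, whereas Lama1 and Lama2 varied more between tunicamycin libraries than in any other group. Their SDs were 1.54 and 1.65 FPKM with tunicamycin and 0.20 and 0.34 FPKM in vehicle set 2. With only the 2 groups compared in the model, Lama4 was the 1 call left, and limma adjusted p-values were 0.112 for Lama1 and 0.0956 for Lama2. With the Y-linked level (the mean log2 level of the Y-linked genes) as a covariate, Col12a1 and Col27a1 lost their calls. The other called genes kept theirs, with limma adjusted p-values of 9.18e-06 to 0.0378. Lama2 and Lama4 were the 2 calls left under the lens limit, or 4.26% of the genes tested, against 0.891% of all genes tested.

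**Figure D2:**
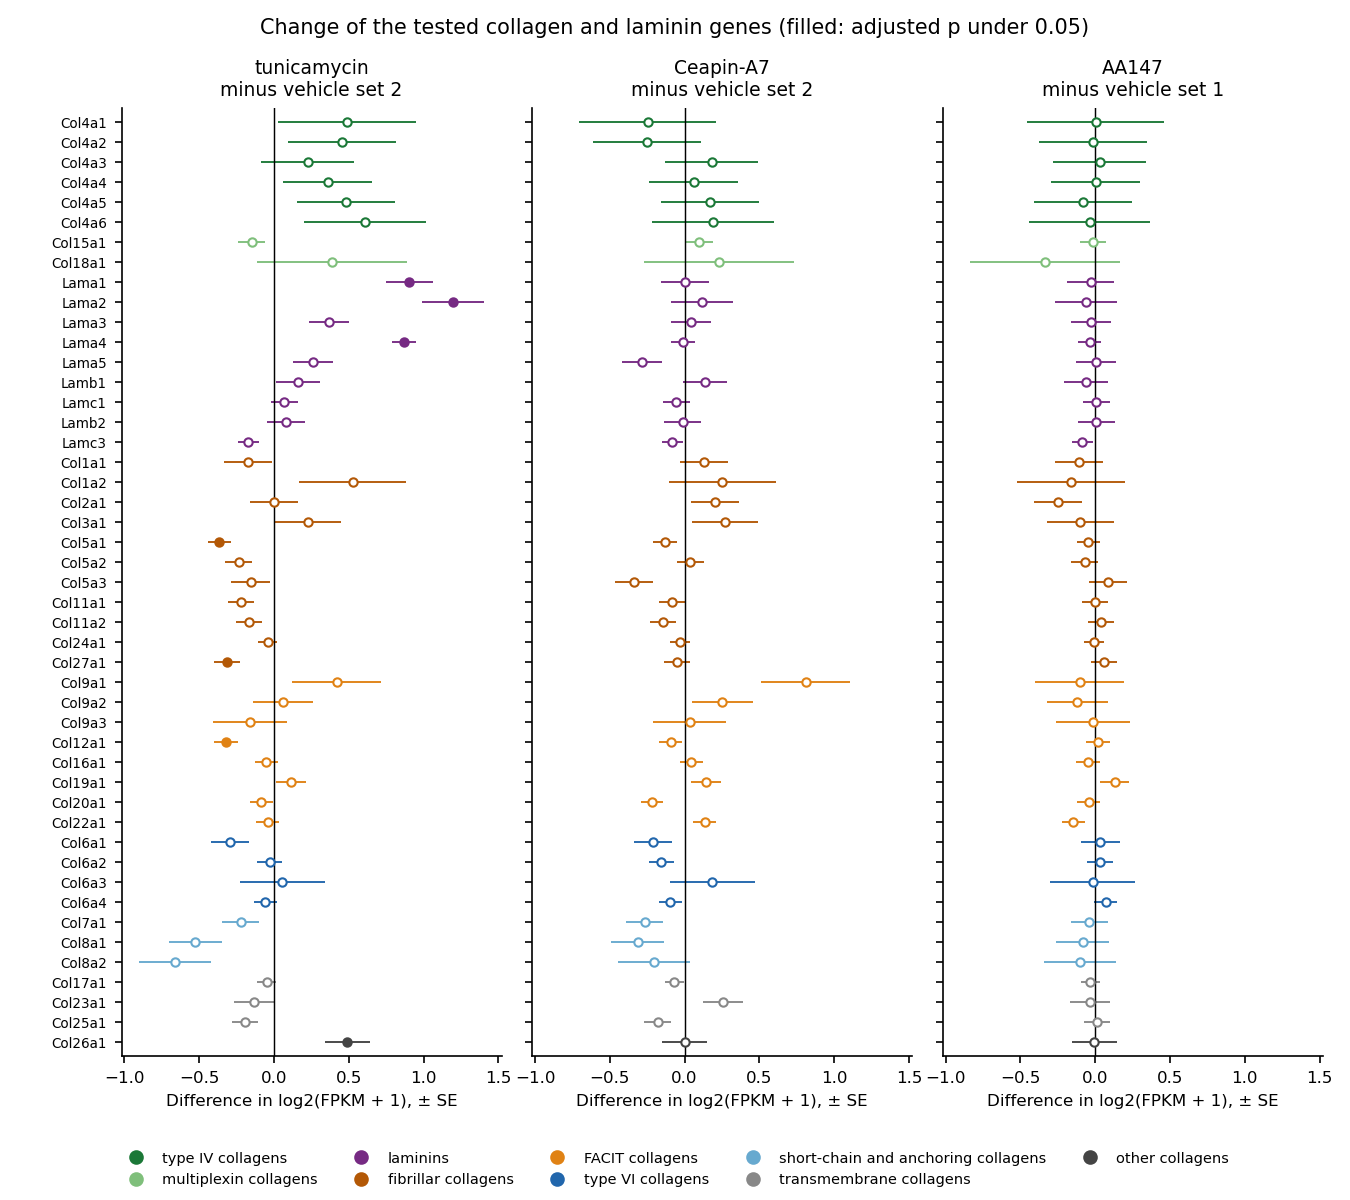
Difference in log2(FPKM + 1), with its standard error, of the 47 tested genes for tunicamycin and Ceapin-A7 against vehicle set 2 and for AA147 against vehicle set 1. Colours give the class and filled points the genes with an adjusted p under 0.05. Filled points appear in the tunicamycin panel alone, 3 laminin alpha chains and Col26a1 to the right of 0 and Col5a1, Col12a1 and Col27a1 to the left.

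Among the laminins, 3 of the 5 alpha chains rose with tunicamycin and 0 of the 4 tested beta and gamma chains passed the test. The median change was 0.87 for the alpha chains and 0.08 for the beta and gamma chains. Under the lens limit, where 2 tunicamycin libraries remain, the medians were 0.48 and -0.02, and 2 alpha chains were called. Lens RNA moved with Lama2 but not with Lama4, which was highest in tunicamycin library 4, under the limit. The part of lens RNA in these medians was not tested. Lama4, an alpha chain of vessel basement membranes, was higher in each tunicamycin library than in any other library. In library order, Lama4 had 2.13, 2.3, 2.29, 3.18 and 2.48 FPKM in the tunicamycin libraries, 0.77, 0.8, 1.05, 0.93 and 0.87 FPKM in the Ceapin-A7 libraries and 0.92, 0.74, 0.7, 1.08 and 1.06 FPKM in vehicle set 2. It had 0.8, 0.92, 0.86, 1.06 and 0.64 FPKM in the AA147 libraries and 1.05, 0.97, 0.87, 0.7 and 0.93 FPKM in vehicle set 1. The lowest tunicamycin library, at 2.13 FPKM, stood above the highest of the other 20 libraries, at 1.08 FPKM. Of all tested genes, 2.76% had every tunicamycin library above every library of vehicle set 2, as 1 of the 47 genes did. The share of all tested genes above all 20 other libraries was not counted. The mean was 2.48 ± 0.41 FPKM with tunicamycin and 0.90 ± 0.18 FPKM in vehicle set 2 (SD, n = 5 each), a ratio of means of 2.75. The change was 0.87 ± 0.08 on the log2(FPKM + 1) scale (SE; limma adjusted p = 1.03e-07), on which the added 1 FPKM makes low genes look less changed than they are. Over the libraries under the lens limit it was 0.97 ± 0.12 (adjusted p = 0.000171). With the lens level (the mean log2 level of the lens markers) as a covariate it was 0.87 ± 0.08 (limma adjusted p = 3.09e-07). At the median depth 1 FPKM of Lama4 corresponded to about 135 fragments.

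Lama2, the alpha chain of muscle and vessel laminin, showed the largest change among the 47 genes. In library order, Lama2 had 3.92, 2.77, 0.93, 1.38 and 4.83 FPKM in the tunicamycin libraries, 0.84, 0.55, 0.66, 0.4 and 0.76 FPKM in the Ceapin-A7 libraries and 1.13, 0.41, 0.32, 0.45 and 0.35 FPKM in vehicle set 2. It had 0.3, 0.56, 0.4, 0.29 and 0.28 FPKM in the AA147 libraries and 0.36, 0.77, 0.33, 0.37 and 0.32 FPKM in vehicle set 1. Tunicamycin libraries 1, 2 and 5, those over the lens limit, held the 3 highest values, and library 3 overlapped vehicle set 2. The change was 1.2 ± 0.21 (limma adjusted p = 0.000846), with a ratio of mean FPKM of 5.2. Within the libraries under the lens limit the change was 0.63 ± 0.12 (adjusted p = 0.0153). With the lens level as a covariate the change was 1.08 ± 0.15 (limma adjusted p = 0.0001245). RNA from lens moved with this gene, and beyond these fits its part in the result was not tested. Within vehicle set 2, library 1, which was over the lens limit, had 1.13 FPKM and the other 4 libraries had 0.32 to 0.45 FPKM.

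Lama1 encodes the alpha chain of the inner limiting membrane and of the lens capsule. In library order, Lama1 had 5.6, 3.6, 1.3, 3.42 and 3.97 FPKM in the tunicamycin libraries, 1.5, 1.24, 1.14, 1.28 and 1.47 FPKM in the Ceapin-A7 libraries and 1.46, 1.00, 1.34, 1.5 and 1.32 FPKM in vehicle set 2. It had 1.23, 1.00, 1.22, 1.11 and 1.2 FPKM in the AA147 libraries and 1.28, 1.35, 1.07, 1.2 and 1.09 FPKM in vehicle set 1. Of the tunicamycin libraries 4 lay at 3.42 FPKM or more and library 3 lay at 1.30 FPKM, among the other 20 libraries, which spanned 1.00 to 1.5 FPKM. Of the tunicamycin libraries, library 1 had both the highest Lama1 and the highest lens sum, and library 3 the lowest of both. Library 4 had 3.42 FPKM with a lens sum of 399 FPKM. Ceapin-A7 library 1 had 1.5 FPKM with a lens sum of 12760 FPKM. The change was 0.90 ± 0.16 (limma adjusted p = 0.000927), and 0.48 ± 0.16 (adjusted p = 0.219) under the lens limit, where 2 tunicamycin libraries remain. With the lens level as a covariate the change was 0.83 ± 0.14 (limma adjusted p = 0.000669). Beyond these fits, the part of lens RNA in this result was not tested.

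The other 2 alpha chains did not pass the test. Lama5, the alpha chain found in most mature basement membranes, had 7.01, 5.09, 3.83, 4.59 and 7.05 FPKM with tunicamycin and 4.73, 2.94, 3.46, 5.27 and 5.77 FPKM in vehicle set 2, a difference of 0.26 ± 0.13 (adjusted p = 0.235). Lama3, an epithelial alpha chain, had 1.32, 0.96, 0.57, 0.63 and 2.33 FPKM with tunicamycin and 0.95, 0.45, 0.45, 0.6 and 0.65 FPKM in vehicle set 2, a difference of 0.37 ± 0.13 (adjusted p = 0.088). Both groups overlapped for both genes. The differences under the lens limit were -0.01 ± 0.17 for Lama5 and 0.06 ± 0.08 for Lama3. Without libraries 4 and 5 of vehicle set 2, Lama5 was called, at 0.46 ± 0.14 (limma adjusted p = 0.0452). The beta chains Lamb1 (0.16 ± 0.15) and Lamb2 (0.08 ± 0.12) and the gamma chains Lamc1 (0.07 ± 0.09) and Lamc3 (-0.17 ± 0.07) had adjusted p-values of 0.136 to 0.737. The untested beta chain Lamb3 stayed at or below 0.17 FPKM in every library.

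**Figure D3:**
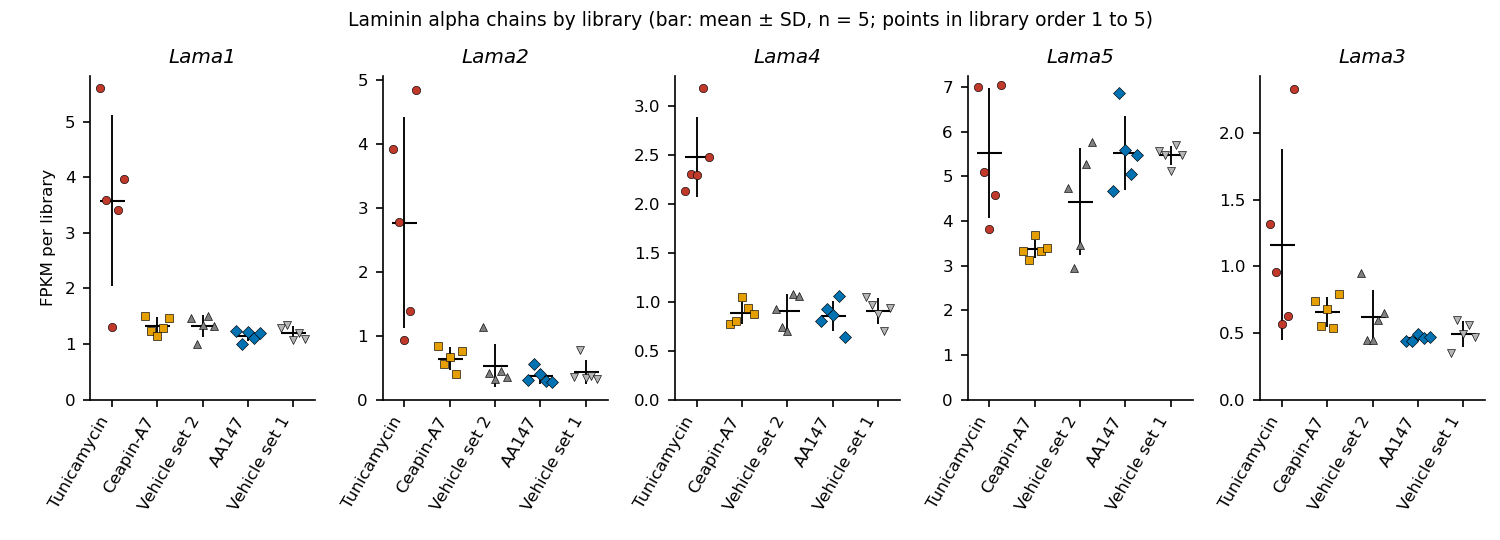
FPKM of the 5 laminin alpha chains in every library, by group, with points in library order and the mean ± SD of 5 libraries as a bar. Lama4 is at 2.13 to 3.18 FPKM in the tunicamycin libraries and at 0.64 to 1.08 FPKM in all others, whereas Lama1 and Lama2 have 1 tunicamycin library (library 3) beside the other groups.

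Summed over chains, laminin alpha was 15.5 ± 4.90 FPKM in tunicamycin libraries, 6.88 ± 0.47 FPKM in Ceapin-A7 libraries and 7.81 ± 1.76 FPKM in vehicle set 2 (SD, n = 5 each). The gamma sum was 6.05 FPKM with tunicamycin, 5.50 FPKM with Ceapin-A7 and 5.88 FPKM in vehicle set 2. The ratio of alpha to gamma chains was 3.01, 2.47, 1.75, 2.26 and 3.09 in the tunicamycin libraries. It lay between 1.14 and 1.55 in the other 20 libraries, below all 5 of these. Lama5 made up 34.1 to 42.9% of the alpha sum in tunicamycin libraries, 46.4 to 51.4% in Ceapin-A7 libraries and 51.5 to 63.1% in vehicle set 2. The alpha sum and the ratio were highest in tunicamycin libraries 1, 2 and 5, those over the lens limit. Among the libraries under the limit, the alpha sum was 8.92 and 13.2 FPKM with tunicamycin, 6.27 to 7.21 FPKM with Ceapin-A7 and 5.54 to 9.15 FPKM in vehicle set 2, so tunicamycin and vehicle set 2 overlapped. The part of lens RNA in these sums was not tested. The sum, the ratio and the Lama5 share are built from Lama1, Lama2 and Lama4, called above, so they are no further support for those calls. These sums describe transcript levels per length and say nothing of assembled trimers.

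No type IV collagen chain passed the test, although all 6 had a positive difference, with a median of 0.47. The 6 chains form 3 kinds of trimer, and Col4a1 and Col4a2 make the one found in all basement membranes. In library order, Col4a1 had 40.1, 27.2, 10.4, 9.67 and 50.4 FPKM in the tunicamycin libraries, 19.7, 8.74, 9.97, 9.22 and 24.2 FPKM in the Ceapin-A7 libraries and 72.9, 8.24, 8.36, 14.8 and 12.2 FPKM in vehicle set 2. It had 13.6, 14.3, 13.2, 12.7 and 11.4 FPKM in the AA147 libraries and 15.04, 13.3, 11.8, 12.1 and 12.9 FPKM in vehicle set 1. In library order, Col4a2 had 21.96, 16.2, 8.15, 8.22 and 27.8 FPKM in the tunicamycin libraries, 10.6, 6.66, 7.31, 7.09 and 13.01 FPKM in the Ceapin-A7 libraries and 40.5, 5.3, 6.32, 9.1 and 9.28 FPKM in vehicle set 2. It had 11.9, 13.01, 13.5, 12.6 and 11.2 FPKM in the AA147 libraries and 12.8, 13.2, 11.6, 12.4 and 12.8 FPKM in vehicle set 1. Tunicamycin libraries 1, 2 and 5, Ceapin-A7 libraries 1 and 5 and library 1 of vehicle set 2 were the high ones for Col4a1, and these are the 6 libraries over the lens limit. The difference was 0.49 ± 0.46 for Col4a1 and 0.45 ± 0.36 for Col4a2 (adjusted p = 0.551 and 0.47), with 95% intervals of -0.46 to 1.44 and -0.29 to 1.2. Under the lens limit the differences were -0.07 ± 0.16 and 0.14 ± 0.14, and the median of the 6 chains was -0.03, with -0.22 ± 0.14 for Col4a3 and -0.17 ± 0.12 for Col4a4.

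The 6 type IV chains together summed to 43.7 to 138 FPKM in the 6 libraries over the lens limit and to 18.6 to 38.9 FPKM in the 19 others. Col4a3 and Col4a4, chains of the specialised network of kidney and lens capsule, did not overlap between these libraries, at 2.07 to 5.10 FPKM against 0.49 to 1.31 FPKM for Col4a3 and 2.00 to 4.61 FPKM against 0.61 to 1.33 FPKM for Col4a4. Col4a5 and Col4a6 overlapped, at 4.75 to 11.1 FPKM against 2.09 to 6.80 FPKM and 1.65 to 5.29 FPKM against 0.20 to 3.14 FPKM. Outside the basement membrane, the type VI chain Col6a3 followed the same libraries, at 0.44 to 2.34 FPKM against 0.06 to 0.34 FPKM. No library under the limit reached the filter of 0.5 FPKM, so Col6a3 was tested only because of libraries over it. That favours a separation at the limit, and the lack of overlap is no support for one. Lama4 did not follow these libraries, with 0.77 to 2.48 FPKM in those over the limit and 0.64 to 3.18 FPKM in those under it. The share of all tested genes that separate at this limit was not counted, so these chains cannot be said to stand out.

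Col4a1 and Col4a2 are transcribed in opposite directions from a shared start, and in RefSeq (build GRCm38.p6) their first bases overlap by 22 bases at chr8:11312805-11312826. The stretch is shown because both genes moved together across the libraries; it is written on the Col4a2 strand, with no capitals because no searched motif lies in it.
Col4a1-Col4a2: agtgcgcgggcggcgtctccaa
The ratio of Col4a1 to Col4a2 FPKM was 1.18 to 1.83 in tunicamycin libraries, 1.30 to 1.86 in Ceapin-A7 libraries and 1.32 to 1.80 in vehicle set 2. It was 0.98 to 1.15 in AA147 libraries and 0.98 to 1.17 in vehicle set 1, so the tables with the other gene list had the lower ratio in all 10 libraries.

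The multiplexin Col18a1, the source of endostatin, had 19.7, 13.4, 3.97, 10.9 and 17.2 FPKM with tunicamycin and 16.97, 3.99, 15.03, 7.44 and 5.9 FPKM in vehicle set 2. Its difference was 0.39 ± 0.50 (adjusted p = 0.68), or -0.10 ± 0.71 under the lens limit, and the groups overlapped. Over all 25 libraries it was at 8.55 to 25.1 FPKM in 15 and at 3.97 to 7.44 FPKM in 10. The 7 markers of ciliary and iris epithelium summed to 41.8 to 97.2 FPKM in those 15 libraries and to 7.96 to 19.3 FPKM in those 10, with both kinds of library in every group. The 12 fibroblast markers also split these libraries without overlap, at 30.2 to 92.6 FPKM in the 15 and 4.68 to 17.1 FPKM in the 10. The cut between the 15 and the 10 was set on the Col18a1 values themselves, and how many other genes split the same way was not counted. Col15a1, the other multiplexin, had 0.23, 0.52, 0.87, 0.54 and 0.51 FPKM with tunicamycin and 0.76, 0.74, 0.66, 0.66 and 0.62 FPKM in vehicle set 2 (difference -0.15 ± 0.09, adjusted p = 0.317).

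Among the 11 fibrillar collagens, 2 fell with tunicamycin, 0 rose and 9 did not pass the test, with a median change of -0.17. Col5a1 encodes the main chain of type V collagen, which nucleates fibrils. In library order, Col5a1 had 1.82, 1.8, 2.44, 1.51 and 2.32 FPKM in the tunicamycin libraries, 2.37, 2.6, 2.44, 2.58 and 2.42 FPKM in the Ceapin-A7 libraries and 3.12, 2.17, 2.8, 2.79 and 3.27 FPKM in vehicle set 2. It had 3.79, 4.57, 4.04, 3.61 and 4.13 FPKM in the AA147 libraries and 4.3, 4.22, 4.13, 4.38 and 3.88 FPKM in vehicle set 1. The tunicamycin libraries lay at 1.51 to 2.44 FPKM and overlapped vehicle set 2 through its library 2. The change was -0.37 ± 0.08 (limma adjusted p = 0.00533), and -0.35 ± 0.11 (adjusted p = 0.205) under the lens limit. Col5a2, the partner chain of type V collagen, had 0.15, 0.16, 0.13, 0.21 and 0.19 FPKM with tunicamycin, below every library of vehicle set 2, at 0.51, 0.25, 0.34, 0.33 and 0.46 FPKM. Its difference of -0.24 ± 0.09 missed the threshold (adjusted p = 0.11). No tunicamycin library neared the filter of 0.5 FPKM, so Col5a2 was tested only because of other groups, where it was higher. That favours a lower level with tunicamycin, and the lack of overlap is no support for a change. For Col5a2, 0.01 FPKM is about 1.48 fragments at the median depth. Among all tested genes, 1.35% had every tunicamycin library below every library of vehicle set 2, and 2.76% the reverse, which among the collagens and laminins was Lama4. The untested Col28a1 also did not overlap, at 0.04 to 0.06 FPKM with tunicamycin and 0.08 to 0.17 FPKM in vehicle set 2, where 0.01 FPKM is about 0.93 of a fragment.

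Col27a1 encodes a long fibrillar chain of cartilage. In library order, Col27a1 had 2.64, 3.92, 3.66, 3.2 and 4.3 FPKM in the tunicamycin libraries, 5.14, 4.24, 4.3, 3.91 and 4.47 FPKM in the Ceapin-A7 libraries and 5.06, 3.9, 4.79, 4.3 and 5.01 FPKM in vehicle set 2. It had 6.8, 6.96, 6.23, 6.04 and 7.59 FPKM in the AA147 libraries and 6.11, 6.22, 7.15, 5.78 and 6.74 FPKM in vehicle set 1. Library 1 was the lowest of the tunicamycin group and the range overlapped vehicle set 2. The change was -0.31 ± 0.09 (limma adjusted p = 0.0267), and -0.31 ± 0.09 (adjusted p = 0.165) under the lens limit. Col12a1, a FACIT collagen of dense connective tissue, was the 1 FACIT gene that fell. In library order, Col12a1 had 0.85, 1.18, 1.82, 1.49 and 1.22 FPKM in the tunicamycin libraries, 1.46, 1.62, 1.6, 1.87 and 1.86 FPKM in the Ceapin-A7 libraries and 1.92, 1.71, 1.62, 2.02 and 2.04 FPKM in vehicle set 2. It had 1.18, 1.22, 1.24, 1.18 and 1.05 FPKM in the AA147 libraries and 1.1, 1.31, 1.22, 1.04 and 1.08 FPKM in vehicle set 1. Tunicamycin library 1 was the lowest of all 25 libraries, and library 3, with the lowest lens sum of that group, lay within vehicle set 2. The change was -0.32 ± 0.08 (limma adjusted p = 0.0143), and -0.10 ± 0.08 (adjusted p = 0.698) under the lens limit. Vehicle set 2 itself was higher than vehicle set 1 for Col12a1, by 0.41 ± 0.08 (adjusted p = 0.000166).

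Col26a1, a short collagen, was the 1 collagen that rose. In library order, Col26a1 had 7.02, 3.63, 2.22, 3.35 and 3.55 FPKM in the tunicamycin libraries, 2.27, 2.2, 1.9, 2.86 and 2.71 FPKM in the Ceapin-A7 libraries and 2.06, 2.48, 2.59, 2.93 and 1.88 FPKM in vehicle set 2. It had 2.32, 2.45, 2.35, 2.87 and 2.93 FPKM in the AA147 libraries and 2.13, 2.34, 2.81, 2.81 and 2.93 FPKM in vehicle set 1. Library 1 was the highest of all 25, and tunicamycin library 3 lay within the other groups. The change was 0.49 ± 0.15 (limma adjusted p = 0.0438). It was 0.12 ± 0.14 (adjusted p = 0.806) under the lens limit and 0.44 ± 0.14 (limma adjusted p = 0.0643) with the lens level as a covariate. Without tunicamycin library 1 the comparison as a whole had 4 calls, the 3 laminin alpha chains and 1 lower collagen.

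The most abundant collagens outside the basement membrane did not pass the test against vehicle set 2. In library order, Col6a1 had 11.7, 17.9, 24.9, 19.2 and 18.3 FPKM in the tunicamycin libraries, 19.6, 20.3, 17.5, 18.2 and 19.5 FPKM in the Ceapin-A7 libraries and 22.2, 16.9, 20.8, 23.3 and 29.2 FPKM in vehicle set 2. It had 34.4, 33.4, 37.99, 38.6 and 37.7 FPKM in the AA147 libraries and 32.3, 38.9, 33.99, 36.8 and 35.8 FPKM in vehicle set 1. In library order, Col23a1 had 10.00, 14.9, 15.3, 14.6 and 16.1 FPKM in the tunicamycin libraries, 18.7, 19.4, 19.97, 17.5 and 18.1 FPKM in the Ceapin-A7 libraries and 18.99, 13.2, 19.1, 12.9 and 14.4 FPKM in vehicle set 2. It had 16.7, 22.4, 20.7, 15.1 and 15.6 FPKM in the AA147 libraries and 18.7, 23.4, 16.6, 19.7 and 14.5 FPKM in vehicle set 1. Tunicamycin library 1 was the lowest of its group in both genes. In library order, Col2a1 had 6.53, 12.2, 9.8, 11.3 and 12.8 FPKM in the tunicamycin libraries, 12.8, 13.4, 10.9, 10.7 and 12.2 FPKM in the Ceapin-A7 libraries and 13.8, 10.4, 13.8, 7.08 and 8.01 FPKM in vehicle set 2. It had 17.2, 16.4, 20.96, 14.7 and 15.1 FPKM in the AA147 libraries and 19.8, 23.9, 21.8, 18.8 and 16.9 FPKM in vehicle set 1. In library order, Col9a1 had 13.6, 19.4, 14.3, 14.5 and 23.4 FPKM in the tunicamycin libraries, 26.6, 22.3, 26.7, 16.8 and 19.9 FPKM in the Ceapin-A7 libraries and 19.98, 11.7, 25.01, 5.67 and 7.65 FPKM in vehicle set 2. It had 13.97, 29.2, 29.5, 16.5 and 14.7 FPKM in the AA147 libraries and 17.9, 28.3, 18.7, 29.4 and 15.4 FPKM in vehicle set 1. The groups overlapped in all 4 genes. The differences between tunicamycin and vehicle set 2 were -0.29 ± 0.13 for Col6a1, -0.14 ± 0.13 for Col23a1, 0.00 ± 0.16 for Col2a1 and 0.42 ± 0.30 for Col9a1, with adjusted p-values of 0.162 to 0.996. The chains of type VIII collagen, known from corneal and vascular membranes, came nearest to the threshold of those not called, with -0.53 ± 0.18 for Col8a1 (adjusted p = 0.0656) and -0.66 ± 0.24 for Col8a2 (adjusted p = 0.086).

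Col1a1 and Col3a1, chains of the fibrous collagens of sclera and skin, were low. They summed to 1.15 to 1.34 FPKM in tunicamycin libraries, 0.83 to 4.15 FPKM in Ceapin-A7 libraries and 0.58 to 1.69 FPKM in vehicle set 2. AA147 libraries had 1.09 to 3.01 FPKM and vehicle set 1 had 1.03 to 4.36 FPKM. The 3 libraries over 2 FPKM, a limit set on these same sums, were Ceapin-A7 library 3, AA147 library 2 and library 2 of vehicle set 1. These had the 3 highest sums of 12 fibroblast markers, 64.8 to 92.6 FPKM against 4.68 to 63.6 FPKM in the other 22, the 3 highest sums of 13 pigment epithelium markers, 299.8 to 377 FPKM against 30.5 to 289.8 FPKM, and the 3 highest sums of 11 pericyte and smooth muscle markers, 47.7 to 91 FPKM against 14.5 to 46.3 FPKM.

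**Figure D4:**
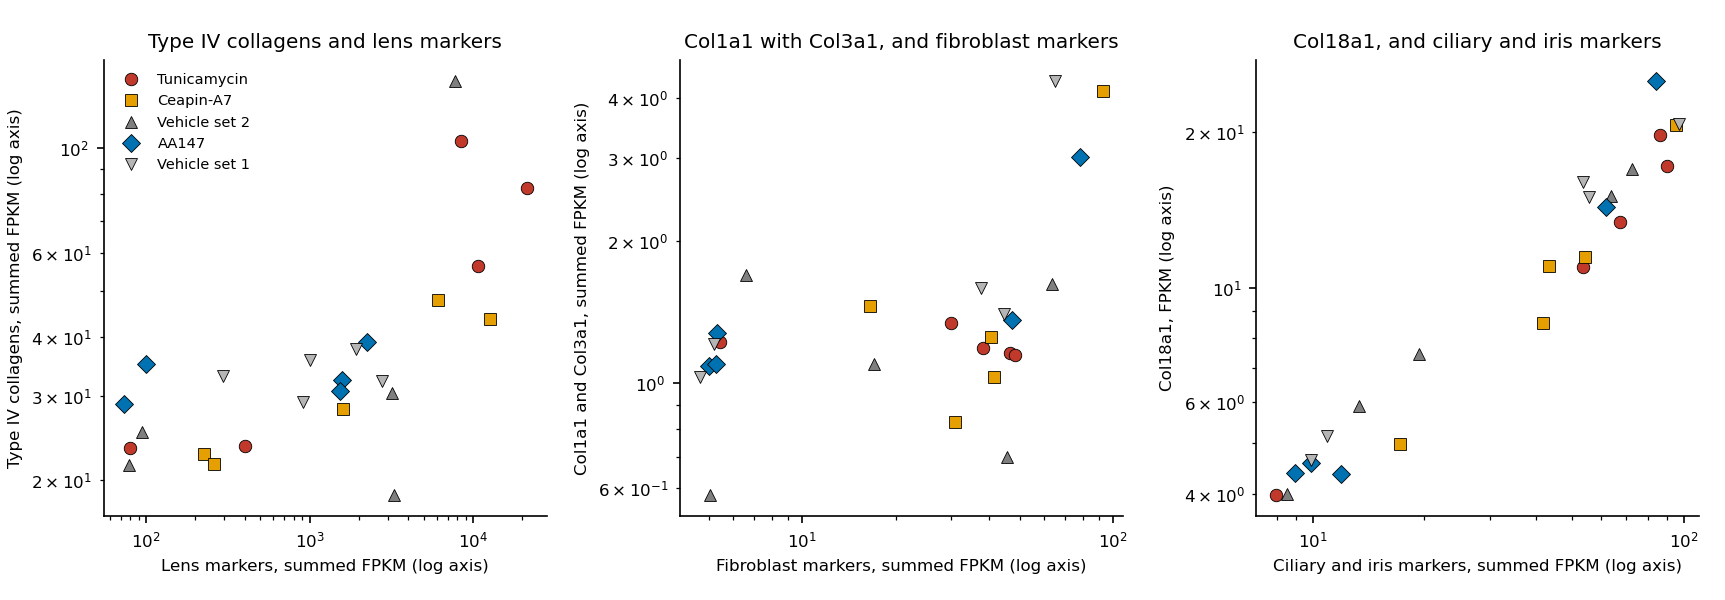
Each of the 25 libraries as 1 point, with log axes: the type IV collagen sum against the lens marker sum, the Col1a1 and Col3a1 sum against the fibroblast marker sum, and Col18a1 against the ciliary and iris marker sum (all in FPKM; symbols give the group). The 6 libraries with a lens sum over 5000 FPKM have the 6 highest type IV sums, and Col18a1 is lowest in the 10 libraries with the lowest ciliary sums.

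Ceapin-A7 against vehicle set 2 gave 0 calls among the 47 genes and 0% of all genes tested by limma. At an unadjusted p under 0.05 there were 5 of the 47 genes, 1 higher and 4 lower, and 1706 of all genes tested. The median change was 0.00 over the 47 genes. The smallest p was that of the FACIT gene Col20a1, with 7.76, 7.45, 6.26, 6.78 and 6.94 FPKM in the Ceapin-A7 libraries and 9.04, 7.14, 7.52, 8.83 and 9.33 FPKM in vehicle set 2, a difference of -0.22 ± 0.08 (adjusted p = 0.311). The largest difference was 0.81 ± 0.30 for Col9a1 (adjusted p = 0.332), where libraries 4 and 5 of vehicle set 2, at 5.67 and 7.65 FPKM, were the lowest of all 25. The laminin alpha chains differed by -0.01 ± 0.08 for Lama4, 0.12 ± 0.21 for Lama2 and 0.00 ± 0.16 for Lama1, with 95% intervals of -0.17 to 0.15, -0.31 to 0.55 and -0.32 to 0.33. No collagen or laminin had Ceapin-A7 libraries all above or all below vehicle set 2, a state that 0.934% and 0.478% of all tested genes showed.

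AA147 against vehicle set 1 also gave 0 calls among the 47 genes and 0% of all genes tested by limma. At an unadjusted p under 0.05 there were 0 of the 47 genes and 262 of all genes tested. The median change was -0.03. The largest difference was that of Col18a1, at -0.33 ± 0.50, with its 2 kinds of library in both groups, and the smallest p was that of the FACIT gene Col22a1, at -0.15 ± 0.08. Lama4, Lama2 and Lama1 differed by -0.04 ± 0.08, -0.06 ± 0.21 and -0.03 ± 0.16, with 95% intervals of -0.20 to 0.13, -0.49 to 0.37 and -0.36 to 0.30. A difference of the size seen with tunicamycin lies outside each of these intervals. The interval for Col4a1 was -0.95 to 0.95, although its libraries were close together, at 11.4 to 14.3 FPKM with AA147 and 11.8 to 15.04 FPKM in vehicle set 1, because the model shares 1 spread for all 5 groups. No collagen or laminin had AA147 libraries all above or all below vehicle set 1, against 0.456% and 0.2% of all tested genes.

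Tunicamycin against Ceapin-A7 gave 8 called genes of 47, 5 higher and 3 lower, beside 13.1% of all genes tested (8.59% higher, 4.5% lower). This comparison shares the tunicamycin libraries with the one above. The 5 higher genes were Lama4 (0.88 ± 0.08, limma adjusted p = 7.31e-08), Lama2 (1.08 ± 0.21, adjusted p = 0.00173), Lama1 (0.90 ± 0.16, adjusted p = 0.000782), Lama5 (0.55 ± 0.13, adjusted p = 0.0098) and Col26a1 (0.49 ± 0.15, adjusted p = 0.0349). Lama5 had 3.33, 3.13, 3.68, 3.33 and 3.39 FPKM in the Ceapin-A7 libraries, below all tunicamycin libraries. The 3 lower genes were Col5a2, Col27a1 and Col5a1, with differences of -0.27 ± 0.09, -0.26 ± 0.09 and -0.23 ± 0.08 and adjusted p-values of 0.0493, 0.049 and 0.0498. These 3 calls lay at the threshold and were kept in 4 of 20, 9 of 21 and 7 of 21 alternatives. Lama2, Lama4 and Lama5 had every tunicamycin library above every Ceapin-A7 library, as 6.49% of all tested genes did, and Col1a1, Col5a2 and Col23a1 every one below, as 2.87% did. Col1a1 and Col5a2 reached at most 0.33 and 0.21 FPKM with tunicamycin. Both passed the filter of 0.5 FPKM only through other groups, which favours a lower level with tunicamycin. Under the lens limit Lama4 was the 1 call left, at 0.95 ± 0.12, and Lama5 differed by 0.25 ± 0.17 (adjusted p = 0.599).

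The tunicamycin change against vehicle set 2 exceeded the AA147 change against vehicle set 1 for 3 of 47 genes, beside 0.977% of all genes tested in either direction and 0.57% higher. These were Lama4, with a difference of 0.91 ± 0.11 (limma adjusted p = 3.42e-05), Lama2, with 1.26 ± 0.29 (adjusted p = 0.0335), and Lama1, with 0.93 ± 0.22 (adjusted p = 0.0399). Under the lens limit Lama4 was the 1 call left, at 1.01. Lama1 kept its call in 8 of 32 alternatives and Lama2 in 15 of 32, and with 1 library left out in 2 of 20 and 8 of 20 fits. Lama4 kept it in all 32.

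The 2 vehicle sets differed from each other. Between vehicle set 2 and vehicle set 1, 18 of 47 genes were called, 2 higher and 16 lower, beside 44.5% of all genes tested (25% higher, 19.5% lower). The median was -0.23 over the 47 genes. The fibrillar Col2a1 was lower in vehicle set 2, with 13.8, 10.4, 13.8, 7.08 and 8.01 FPKM against 19.8, 23.9, 21.8, 18.8 and 16.9 FPKM in vehicle set 1, as was the anchoring fibril collagen Col7a1, with 4.24, 2.56, 3.38, 4.07 and 5.42 FPKM against 8.31, 7.79, 8.48, 7.77 and 7.74 FPKM. The laminin alpha chains did not pass the test, with Lama4 differing by -0.01 ± 0.08. Each group has a table of its own, and what sets the vehicle sets apart was not tested.

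The genes around these chains were grouped by step. Of 19 genes for modification and folding of collagen in the ER, all tested, 6 rose with tunicamycin against vehicle set 2, 0 fell and 13 did not pass, with a median of 0.12. That is 31.6% of the list, against 5.68% of all genes tested that rose. The collagen chaperone Serpinh1 rose by 1.16 ± 0.23 (limma adjusted p = 0.00249), with a mean of 29.5 FPKM with tunicamycin and 13.2 FPKM in vehicle set 2. The prolyl hydroxylase subunits P4hb and P4ha1 rose by 0.50 ± 0.10 and 0.32 ± 0.08, and the cyclophilin Ppib by 0.43 ± 0.09. Of 14 genes for export of procollagen from the ER, 7 rose (50% of the list), 0 fell and 7 did not pass, with a median of 0.21. The COPII coat genes Sec24d and Sec23b rose by 0.88 ± 0.16 and 0.53 ± 0.13, the cargo receptor Mia3 by 0.34 ± 0.08 and the transcription factor Creb3l2 by 0.39 ± 0.10. Under the lens limit P4hb was the 1 call left in both lists, at 0.40 ± 0.07 (limma adjusted p = 0.0112), with medians of 0.12 and 0.13 for the lists, and Serpinh1 differed by 1.04 ± 0.33 (adjusted p = 0.193). Several genes of both lists also serve secretion in general. Both lists had 0 calls with Ceapin-A7 and with AA147. The test of the tunicamycin change against the AA147 change also gave 0 calls among these 33 genes, beside 0.977% of all genes tested. A difference between the 2 compounds was therefore not shown for these lists.

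Of the 60 tested genes in the 5 lists that act outside the cell, 3 were called with tunicamycin, all lower, or 5% against 8.51% of all genes tested, and 0 under the lens limit. Of the tested genes for processing and crosslinking, Tgm2, a transglutaminase, fell by 0.90 (SE 0.18, limma adjusted p = 0.00319). Of the matrix proteases and inhibitors, the membrane protease Mmp15 fell by 0.28 (SE 0.07, adjusted p = 0.0191). Of the 17 genes in the list for other basement membrane components, Sparcl1 fell by 0.29 (SE 0.09, adjusted p = 0.0429). Whether Sparcl1 is part of that membrane was not tested. No gene of the 9 tested receptors for collagens and laminins was called, and the collagen receptor Ddr1 and the laminin receptor Dag1 differed by 0.02 ± 0.09 and -0.03 ± 0.06. No gene of the 8 small leucine-rich proteoglycans was called, with 1.54 ± 1.22 for Optc, also a marker of ciliary epithelium, and 0.06 ± 0.20 for Prelp.

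Markers of vessel cells moved with tunicamycin beside Lama4. Of 15 endothelial markers, 8 fell and 3 rose against vehicle set 2, and their summed level was 79.9 to 111 FPKM in tunicamycin libraries and 123 to 153 FPKM in vehicle set 2. The lower ones included Ly6c1, at -2.31 ± 0.13, and Cldn5, at -1.32 ± 0.12, and the higher ones were Egfl7 (0.76 ± 0.09), Eng (0.52 ± 0.10) and Cdh5 (0.48 ± 0.10). Of 11 pericyte and smooth muscle markers, 6 fell, led by Rgs5 at -1.57 ± 0.08, and their sum was 14.5 to 21.4 FPKM in tunicamycin libraries and 33.5 to 45.7 FPKM in vehicle set 2. Of 11 tested pigment epithelium markers 5 fell, led by Ttr at -3.02 ± 0.41. Of all genes tested, 2.84% fell and 5.68% rose in the same comparison. Of 20 lens markers none was called, with a median of 1.34, and none of 14 Müller glia markers was called, with a median of -0.13. In the libraries under the lens limit, 6 endothelial markers fell and 1 rose, 5 pericyte and smooth muscle markers fell and 1 pigment epithelium marker fell. That is 46.7%, 45.5% and 9.09% of these lists, against 0.891% of all genes tested. The part of these cells in the collagen and laminin results was not tested.

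The promoters searched covered 40 of the 55 genes, in 44 promoters. A chromosome was left out for these genes but kept in the 32851 promoters of all genes. Of the 3 laminin alpha chains called with tunicamycin, Lama2 had a promoter among the 44. The 250 bases before its start lie at chr10:27616943-27617192 on the minus strand (RefSeq, GRCm38.p6) and are shown 5′ to 3′ because Lama2 had the largest change, with no capitals because none of the searched motifs lies in them.
Lama2: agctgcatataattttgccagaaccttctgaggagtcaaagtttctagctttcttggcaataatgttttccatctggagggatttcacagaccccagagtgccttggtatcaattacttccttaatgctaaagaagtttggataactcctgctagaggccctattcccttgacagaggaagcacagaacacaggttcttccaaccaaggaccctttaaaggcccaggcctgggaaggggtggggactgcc
The motifs were searched on both strands of the 250 bases before each start. The ER stress response element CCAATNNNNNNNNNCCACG was in 0.113% of the 32851 promoters of all genes and in 0 of the 44. The ATF6 site TGACGTGG was in 0.563% of all and in 0 of the 44, and TGATGCAA, a site for ATF4 with C/EBP factors, was in 0.791% of all and in 0 of the 44. The short core CCACG, which is part of the ER stress response element, was in 28.3% of all promoters and in 15 of the 44. Those of Col4a1, Col4a2 and Col5a1 were among the 15, and whether the shares differ was not tested. The absence of a match says only that these letters are not in this window.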

How the data were processed

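RNA-seq of mouse retina was analysed from 5 tables, 1 for each group of 5 libraries. The values deposited by the authors are in FPKM with 2 decimals. Per the submitters' processing notes, the build was GRCm39 and the tools were DESeq2 1.4.5, HISAT2 2.0.4 and RSEM 1.2.18, with no role given, and no read counts were used here. Columns were matched to samples by name, and 0 columns were left out.

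Over the 14025 genes that reached 0.5 FPKM in 5 or more of the 25 libraries, limma 3.58.1 (R 4.3.3) fitted log2(FPKM + 1) in 1 model of 5 groups with an intensity trend. Tests were two-sided, p-values were adjusted by Benjamini-Hochberg over all 14025 genes, and genes under 0.05 were called. The script was tested on simulated data. The alternatives were other pseudocounts, filters, scalings, weights, covariates, a replicate block, fits of the compared groups alone, libraries left out and a lens limit added later.

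Depth was estimated from the steps of FPKM between single-transcript genes, taking 250 bases at a transcript's end to start no fragment. Whole reads were not recovered, since values lay 0.112 to 0.158 of a read from whole numbers on average, so no count test was run. No 2 libraries were identical. The values of 1 gene are not reported here.

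Values in every library are given for the genes called with a compound against its vehicle set and for the 6 highest genes in vehicle libraries. Of each other list, up to 4 called genes are named, or the 2 highest where none was called. The genes, lists and tests were chosen with earlier results of these data known. Promoters are from RefSeq, build GRCm38.p6, an earlier build than that of the tables, and no protein sequences were used.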

Additional observations from a re-analysis of the deposited data

Results flagged for a closer look

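Among 235 sets of 5 libraries (47 genes in 5 groups), 23 held 1 library far from the other 4 by Dixon's criterion at 95%, or 9.79%, where chance gives about 1 in 20. They fall on 5 libraries. Library 1 of vehicle set 2, which is over the lens limit, was the highest of its group for Col4a1 (72.88 FPKM), Col4a2 (40.51 FPKM), Col4a3 (5.1 FPKM), Col4a4 (4.51 FPKM), Col4a5 (10.34 FPKM), Col4a6 (4.95 FPKM), Col6a3 (2.34 FPKM) and Lama2 (1.13 FPKM). Library 2 of vehicle set 1 was the highest for Col1a1 (1.54 FPKM), Col3a1 (2.82 FPKM), Col6a3 (0.34 FPKM), Lama2 (0.77 FPKM), Lamb1 (6.99 FPKM) and Lamc1 (6.21 FPKM). Ceapin-A7 library 3 was the highest for Col1a1 (1.35 FPKM), Col1a2 (4.63 FPKM), Col3a1 (2.8 FPKM) and Col15a1 (1.05 FPKM). AA147 library 2 was the highest for Col1a1 (1.08 FPKM), Col3a1 (1.93 FPKM) and Col5a2 (0.56 FPKM). Tunicamycin library 1 was the lowest for Col11a1 (1.64 FPKM) and Col23a1 (10.0 FPKM). Col6a3 passed the filter of 0.5 FPKM only through libraries over the lens limit, where it was higher.

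The fibroblast marker sum was 92.6 FPKM in Ceapin-A7 library 3, 78.3 FPKM in AA147 library 2 and 64.8 FPKM in library 2 of vehicle set 1, the highest of their groups. Its part in these values was not tested.

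The tunicamycin change against vehicle set 2 differed from the AA147 change against vehicle set 1 by a test of the difference itself for 3 genes. The difference was 0.93 for Lama1, 1.26 for Lama2 and 0.91 for Lama4 on the log2(FPKM + 1) scale (limma adjusted p = 0.0399, 0.0335 and 3.42e-05). These calls were kept in 8, 15 and 32 of 32 alternatives in the same order.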

How the results depend on the processing

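No called gene changed direction under any alternative. Lama4 kept its call in all 22, 21 and 32 alternatives of tunicamycin against vehicle set 2, against Ceapin-A7 and of the difference from AA147. Against vehicle set 2, Lama2 kept it in 21 of 22, Lama1 and Col5a1 in 20, Col12a1 in 17, Col27a1 in 12 and Col26a1 in 5. Against Ceapin-A7, Lama1, Lama2 and Lama5 kept it in 20 of 21, Col26a1 in 12, Col27a1 in 9, Col5a1 in 7 and Col5a2 in 4 of 20. For the difference from AA147, Lama2 kept it in 15 and Lama1 in 8 of 32. The 7 calls against vehicle set 2 became 1 with the compared groups only, 2 under the lens limit, and 4 to 9 with 1 library left out, 4 being without tunicamycin library 1. The 8 calls against Ceapin-A7 became 4 with no filter, 4 with the compared groups only, 5 with the lens level as covariate, 1 under the lens limit and 4 to 11 with 1 library left out. The 3 calls of the difference from AA147 became 1 with no filter, with the compared groups only, with the Y-linked level as covariate, without vehicle set 2 libraries 4 and 5 or under the lens limit, and 1 to 5 with 1 library left out. The 18 calls of vehicle set 2 against vehicle set 1 numbered 14 to 21 across the alternatives. Ceapin-A7 and AA147 against their vehicle sets had 0 calls in every alternative. The compared-groups fits take the spread from the compared groups alone, and so from fewer libraries. Lama1 and Lama2 varied more between tunicamycin libraries than in any other group. The cause of the other shifts was not tested.

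Over all genes, the 1194 calls of tunicamycin against vehicle set 2 became 93 with the compared groups only, 470 with library weights, 470 with the Y-linked covariate, 125 under the lens limit and 638 to 2049 with 1 library left out. The 1836 against Ceapin-A7 became 675, 101 and 984 to 2971 with the compared groups only, under the lens limit and with 1 library left out. Same-numbered libraries of the groups compared did not consistently deviate together (correlations of -0.415 to 0.446, at most 1 of 5 libraries correlating best with its own number). A pairing by number was therefore not shown, and this check cannot exclude one. With the replicate block the calls were 7 against vehicle set 2, 6 against Ceapin-A7, 3 for the difference from AA147, 18 between the vehicle sets and 0 for Ceapin-A7 and for AA147.

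Without counts, the depth behind a value is an estimate, and genes below 0.5 FPKM could not be followed.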
